A study of Mus musculus with 10 samples.

Results

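The genes described here are the chains of the MHC class I complex and their transcriptional coactivator, followed in mouse prostate organoids in which EZH2 was targeted with a drug or by gene deletion. They were taken by name, as the rows whose symbol is H2-K1, H2-D1, H2-Q4, H2-Q6, H2-Q7, H2-T22, H2-T23, H2-M3, B2M or NLRC5, and all 10 were found among the 24016 genes that both deposited tables share. Of these, 9 in the chemical experiment and 8 in the genetic one reached a mean of 1 RPKM (reads scaled by transcript length and by library size) over the libraries of their table and entered the main test. NLRC5 stayed below that level in both tables, and H2-M3 in the genetic one.

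Organoids are 3-dimensional cultures, here from the dorsal-lateral prostate of C57BL/6 mice aged 8 weeks. The chemical experiment set 3 libraries from 1 µM DZNep, an inhibitor of S-adenosylhomocysteine hydrolase used to lower EZH2 activity, against 3 libraries from its vehicle DMSO. The genetic experiment set 2 libraries from 1 µM Tamoxifen, the ligand that activates CreERT2, against 2 libraries from ethanol (EtOH). Organoids of all 4 groups overexpressed cMYC, carried floxed Ezh2 alleles with an inducible PSA-CreERT2, so that the PSA promoter drives the recombinase, and were given 10 nM of the androgen R1881, vehicle controls included. RNA was taken at 3 days. No label says that libraries of a group came from separate cultures or animals, so a p-value here measures how these libraries vary, and that variation may be technical.

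A class I molecule is a heavy chain paired with the invariant light chain B2M, and it carries a short peptide to the cell surface. H2-K1 and H2-D1 encode the classical heavy chains that show peptides to CD8 T cells. The Q, T and M genes encode non-classical chains with narrower roles. NLRC5 is the class I transactivator. It has no DNA-binding domain of its own and acts on class I and B2M promoters through the RFX, CREB/ATF and NF-Y factors bound there, while interferon regulatory factors and NF-kB act through neighbouring elements.

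These elements are short and their letters can be seen in the promoters. The 250 bases before the annotated start are shown for the classical chains, for H2-Q4 and H2-T23, and for B2M, the 5 of the 10 genes with the smallest p-values for DZNep in the main test. They are from RefSeq, build GRCm38.p6, written 5′ to 3′ on the gene's strand, whereas the deposited values were made on mm9. H2-K1 lies at chr17:34000348-34000597, minus strand. H2-D1 lies at chr17:35262844-35263093, plus strand. H2-Q4 lies at chr17:35379367-35379616, plus strand. H2-T23 lies at chr17:36032702-36032951, minus strand. B2M lies at chr2:122147437-122147686, plus strand. Capitals mark every match to a motif searched.
H2-K1: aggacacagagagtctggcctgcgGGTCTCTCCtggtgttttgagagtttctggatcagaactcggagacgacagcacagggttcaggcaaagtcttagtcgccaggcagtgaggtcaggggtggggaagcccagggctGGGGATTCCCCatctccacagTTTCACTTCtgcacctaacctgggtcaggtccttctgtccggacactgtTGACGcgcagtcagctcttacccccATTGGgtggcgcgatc
H2-D1: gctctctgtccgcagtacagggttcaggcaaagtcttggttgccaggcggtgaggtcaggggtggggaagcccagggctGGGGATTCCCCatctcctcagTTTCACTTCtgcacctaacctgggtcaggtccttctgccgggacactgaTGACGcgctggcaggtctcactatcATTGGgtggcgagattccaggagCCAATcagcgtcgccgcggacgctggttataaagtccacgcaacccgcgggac
H2-Q4: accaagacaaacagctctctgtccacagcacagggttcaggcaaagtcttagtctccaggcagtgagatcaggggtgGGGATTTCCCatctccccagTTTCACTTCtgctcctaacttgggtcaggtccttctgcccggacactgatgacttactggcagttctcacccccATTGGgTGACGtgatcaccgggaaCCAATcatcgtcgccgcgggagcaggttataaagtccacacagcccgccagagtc
H2-T23: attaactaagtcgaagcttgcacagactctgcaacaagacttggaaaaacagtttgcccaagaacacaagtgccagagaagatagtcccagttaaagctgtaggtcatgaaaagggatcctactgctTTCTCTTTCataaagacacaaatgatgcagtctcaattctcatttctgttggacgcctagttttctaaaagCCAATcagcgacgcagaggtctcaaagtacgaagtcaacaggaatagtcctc
B2M: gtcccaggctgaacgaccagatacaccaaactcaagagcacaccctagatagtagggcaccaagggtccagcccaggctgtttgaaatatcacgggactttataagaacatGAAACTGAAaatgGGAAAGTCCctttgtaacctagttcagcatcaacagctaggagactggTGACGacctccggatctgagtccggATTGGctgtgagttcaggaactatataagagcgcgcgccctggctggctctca

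The motifs were read on both strands of those 250 bases. For an interferon response core they were GAAANNGAA and GAANNGAAA. The latter has GAAA and GAA in swapped order and is called the mirror form here, though it is no true mirror image. The others were GGANNNNCC for a kappa B-like core, TGACG for a CRE-like core and CCAAT for the NF-Y box. Promoters of 9 of the 10 genes were in the table, all but NLRC5, and H2-K1 had 2 entries of which the first was used. The form GAAANNGAA was in 3 of the 9 promoters, those of H2-T22, H2-T23 and B2M, against 7.16% of 27025 mouse promoters. The mirror form was added because it was seen in these promoters, so its presence in the 6 others is a description and no comparison with all promoters, of which 6.34% hold it. In those 6, the promoters of H2-K1, H2-D1, H2-Q4, H2-Q6, H2-Q7 and H2-M3, the match had the same 9 letters, TTTCACTTC on the gene's strand. H2-T22 had TTCACTTTC, H2-T23 had TTCTCTTTC and B2M had GAAACTGAA.

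A CCAAT box was in 9 of the 9 promoters, against 34.5% of all promoters. The kappa B-like core was in 8 of 9, against 41.8%, and H2-T23 was the promoter without it. The CRE-like core was in 7 of 9, against 17.9%, and was not found at H2-Q6 or H2-T23. The promoters of H2-K1, H2-D1, H2-Q4, H2-Q6 and H2-Q7 share long runs of nearly the same letters. The 9 are therefore not independent promoters, which limits each comparison with all promoters. A kappa B-like core started 20 to 25 bases before the interferon core, in either form, in H2-K1, H2-D1, H2-Q4, H2-Q6, H2-Q7, H2-T22 and H2-M3. The CRE-like core began 49 bases after it in H2-K1, H2-D1 and H2-Q7, 55 bases after it in H2-M3, 61 in B2M, 80 in H2-Q4 and 168 in H2-T22, so this spacing was not shared by all. Several matches overlap, because both strands of one kappa B-like site fit the pattern. A match is a description of these letters and not evidence of a bound site.

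**Figure D1:**
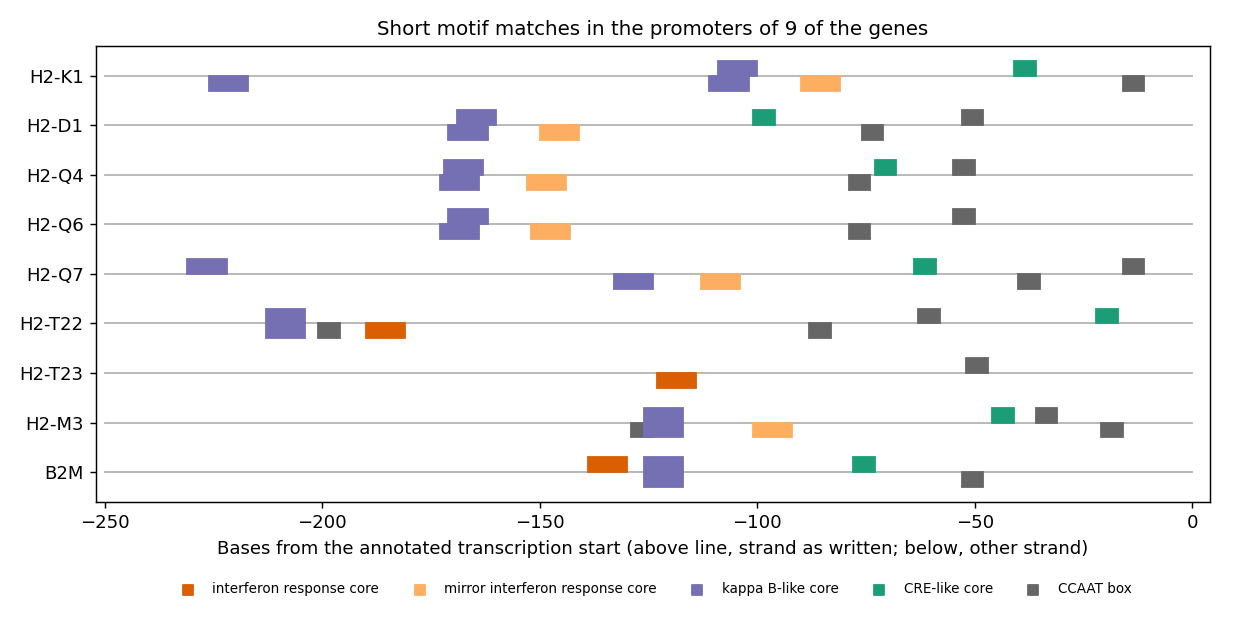
Positions of the motif matches in the 250 bases before the annotated start of 9 genes, in bases from the start, with matches on the strand as written above each line and those on the other strand below it. All 9 promoters hold a CCAAT box and 7 hold a CRE-like core. The interferon core as first searched is in 3, and the other 6 hold the form with GAAA and GAA swapped, labelled mirror.

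Levels were read first within each group, per length of transcript. B2M was the most abundant of the 10 transcripts in all 4 groups, with means of 1047 ± 27.8 RPKM with DZNep and 616 ± 18.7 RPKM with DMSO (SD, n = 3 each), and of 478 ± 37.8 RPKM with Tamoxifen and 605 ± 124 RPKM with EtOH (SD, n = 2 each). H2-K1 and H2-D1 followed at 177 to 273 RPKM by group mean. H2-T23 came next at 59.6 to 98.3 RPKM, and H2-Q4 after it at 11.7 to 20.9 RPKM. The remaining heavy chains had means under 8 RPKM, and NLRC5 was lowest in every group.

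Most neighbours in this order were separated, but some were not. The libraries of H2-D1 and H2-K1 overlapped in level in DMSO and in EtOH, and those of H2-Q7 and H2-Q6 overlapped in DZNep, Tamoxifen and EtOH. H2-T22 overlapped with H2-Q6 in Tamoxifen and with H2-Q7 in EtOH. H2-K1 ranked above H2-D1 with DZNep, where all 3 libraries of H2-K1 lay above those of H2-D1. H2-D1 ranked above H2-K1 by group mean in the other 3 groups.

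Reads of the heavy chains can be shared between genes, which touches every level above. Of the stretches of 50 bases in the longest coding transcript of each gene, 44.7% in H2-T22 also occur in transcripts of other genes, H2-T10 with 37.9% being the nearest. The share was 34.9% in H2-Q7, 32.0% in H2-Q6, 28.8% in H2-T23, 24.3% in H2-Q4, 14.3% in H2-D1 and 8.79% in H2-K1. It was 0.576% in H2-M3 and 0 in B2M and NLRC5. The treatment of strand and of multiply aligned reads, not given in the sources used here, can shift these values, so those of H2-T22, H2-Q6 and H2-Q7 in particular are uncertain.

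**Figure D2:**
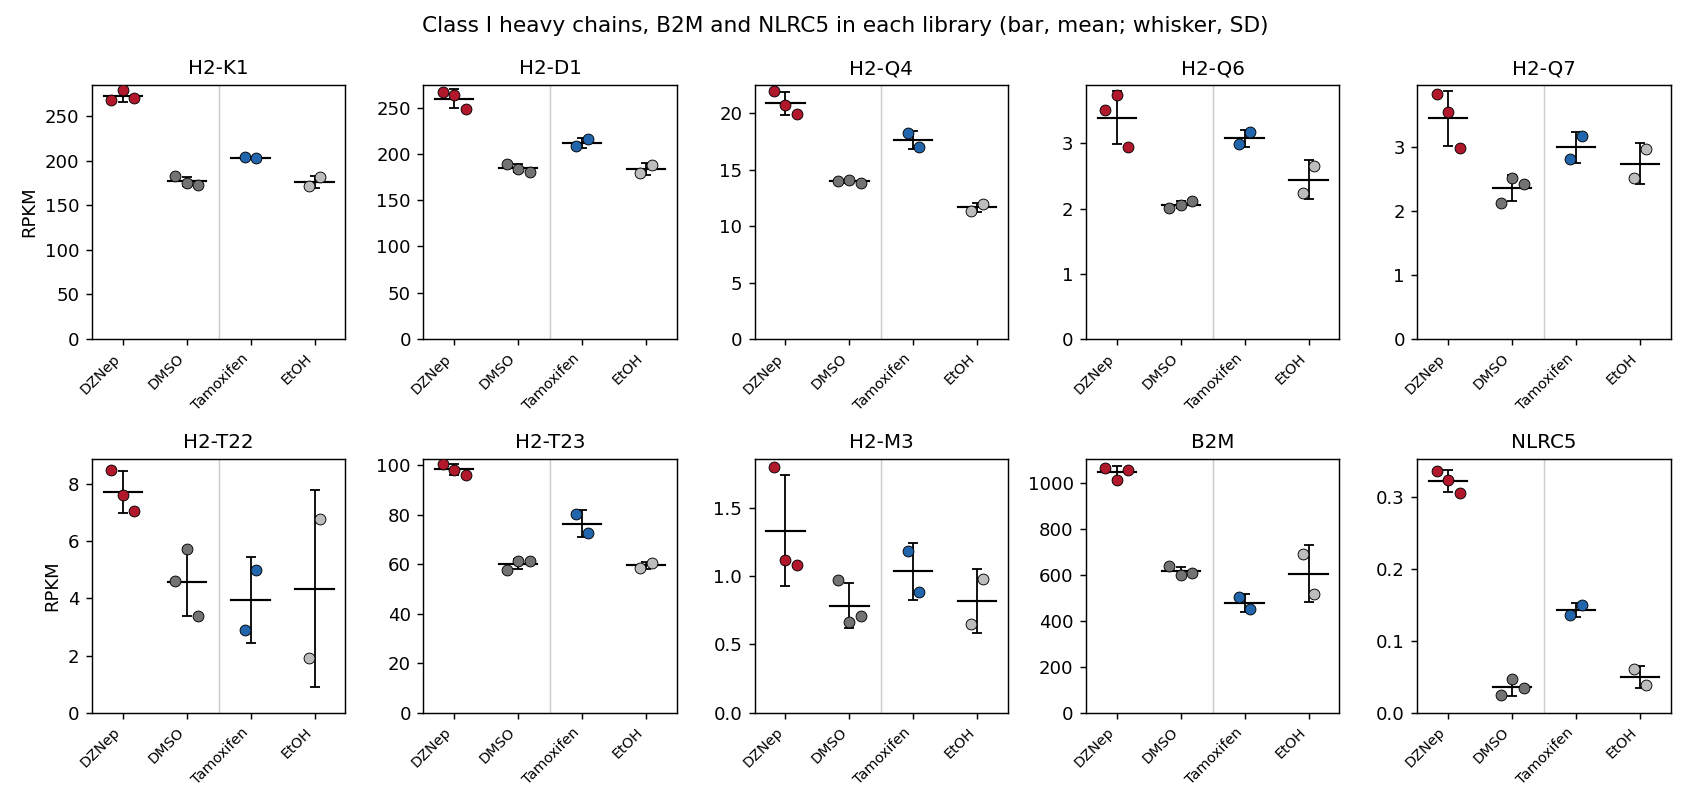
RPKM of each of the 10 genes in every library (points), with the group mean (bar) and SD (whisker), n = 3 each for DZNep and DMSO and n = 2 each for Tamoxifen and EtOH. The DZNep points lie above the DMSO points for all 10 genes, while the Tamoxifen points lie above the EtOH points for 6 and below them for B2M.

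The chemical experiment asked what DZNep does to these organoids, and the class I genes rose together. In 8 of the 9 tested genes the level was higher with DZNep at an adjusted p under 0.05 (limma on log2(RPKM + 1), Benjamini-Hochberg over all genes), and 0 were lower. Over all 11143 genes tested, 16.6% were called higher and 11.1% lower. At an unadjusted p under 0.05, 9 were higher and 0 lower, beside 24% and 17.8% of all genes tested. The ninth gene, H2-M3, reached the filter through its DZNep libraries alone, so it is no support. The other 8 reached a mean of 1 RPKM in both groups, and all 8 were called. The median log2 difference was 0.58 over those 8 and 0.55 over the 9, beside 0.015 over all genes tested. The DZNep libraries lay wholly above the DMSO libraries for all 10 genes, which 20.7% of the genes above 0 in at least 1 library also did. More RNA in each cell and more cells that hold it cannot be told apart in bulk RNA.

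The classical chains showed it at high level. H2-K1 had 268, 279.7 and 270.1 RPKM in the DZNep libraries, against 182, 175 and 173 RPKM in the DMSO libraries. The difference was 0.62 on the log2(RPKM + 1) scale (SE 0.0483; limma adjusted p = 0.000166), and the lowest DZNep library was far above the highest DMSO library. H2-D1 had 267, 264 and 248 RPKM in the DZNep libraries, against 189, 184 and 181 RPKM in the DMSO libraries. Its groups did not overlap either, and its difference was 0.49 (SE 0.0514; limma adjusted p = 0.000677).

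B2M, the light chain that every one of these heavy chains needs for a stable complex at the cell surface, rose further than either classical chain. B2M had 1067, 1015 and 1057 RPKM in the DZNep libraries, against 637, 601 and 609.8 RPKM in the DMSO libraries. The 3 DZNep libraries were close together and far above the DMSO libraries, and the difference was 0.76 (SE 0.0532; limma adjusted p = 8.67e-05). With no 50-base stretch shared with another gene, B2M is free of the read sharing of the heavy chains.

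Among the non-classical chains, H2-T23 had the largest change of the genes with a mean over 10 RPKM. It encodes Qa-1, which presents leader peptides of other class I chains to the CD94/NKG2 receptors of NK cells. H2-T23 had 101, 98.2 and 96.3 RPKM in the DZNep libraries, against 57.8, 61.4 and 61.2 RPKM in the DMSO libraries. The groups were well apart, with a difference of 0.70 (SE 0.0476; limma adjusted p = 7.52e-05).

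The Q genes rose at lower levels. H2-Q4 had 21.98, 20.8 and 19.9 RPKM in the DZNep libraries, against 14.0, 14.1 and 13.8 RPKM in the DMSO libraries. The 3 DMSO libraries were nearly equal and all lay below the DZNep libraries, giving a difference of 0.55 (SE 0.0497; limma adjusted p = 0.000361). H2-Q6 and H2-Q7 belong to the Qa-2 group. H2-Q6 had 3.51, 3.74 and 2.94 RPKM in the DZNep libraries, against 2.01, 2.06 and 2.12 RPKM in the DMSO libraries. H2-Q7 had 3.82, 3.53 and 2.97 RPKM in the DZNep libraries, against 2.13, 2.52 and 2.42 RPKM in the DMSO libraries. In both the third DZNep library was the lowest of its group but still above every DMSO library. The differences were 0.52 for H2-Q6 (SE 0.0782; limma adjusted p = 0.00323) and 0.40 for H2-Q7 (SE 0.0863; limma adjusted p = 0.0127).

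H2-T22, whose product is a ligand of some γδ T cell receptors, had 8.50, 7.61 and 7.04 RPKM in the DZNep libraries, against 4.61, 5.72 and 3.38 RPKM in the DMSO libraries. The groups did not overlap but the DMSO libraries were widely spread, and the difference was 0.66 (SE 0.144; limma adjusted p = 0.0133). The call was lost in a joint fit of all 10 libraries (limma adjusted p = 0.129). H2-T9, counted outside the 10 genes, varied against it between DMSO libraries. The sum of H2-T22 and H2-T9 was 27.1, 29.1 and 27.6 RPKM with DZNep, against 17.3, 17.4 and 17.7 RPKM with DMSO. H2-T9 was picked for that opposed variation and not for shared sequence, so the closeness of the sums within a group follows from the choice.

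H2-M3, which presents peptides that begin with N-formylmethionine, such as bacteria and mitochondria make, did not pass the test. H2-M3 had 1.80, 1.11 and 1.08 RPKM in the DZNep libraries, against 0.974, 0.666 and 0.708 RPKM in the DMSO libraries. Every DZNep library was above every DMSO library, but the first of each group stood well above the rest of its own group, and the difference was 0.38 (SE 0.131; limma adjusted p = 0.0658). It passed without the first DMSO library (limma adjusted p = 0.0492).

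NLRC5 was scarce throughout. NLRC5 had 0.336, 0.323 and 0.305 RPKM in the DZNep libraries, against 0.0240, 0.0466 and 0.0346 RPKM in the DMSO libraries. The DZNep libraries were close together and every one exceeded the highest DMSO library several-fold, the ratio of mean RPKM being 9.16. On the log2(RPKM + 1) scale, which compresses such low values, the difference was 0.35 (SE 0.0149). In the fit with no filter on low values NLRC5 was called higher (limma adjusted p = 0.000249), as were 10.3% of the 17137 genes in that fit. The depth of the libraries is unknown, so no counting interval can be set on these values.

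**Figure D3:**
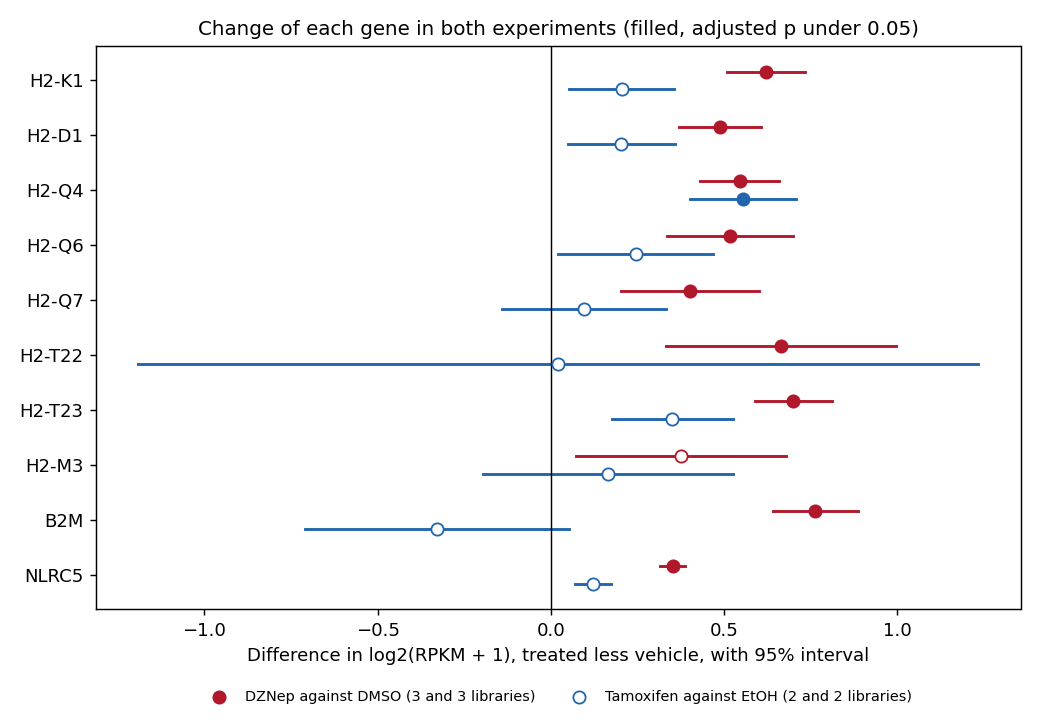
Difference in log2(RPKM + 1) of each gene, DZNep less DMSO (3 libraries each) and Tamoxifen less EtOH (2 libraries each), with 95% intervals from limma, filled where the adjusted p was under 0.05. NLRC5 in both comparisons and H2-M3 for Tamoxifen are from the fit without a filter. All DZNep points are above 0, H2-Q4 is the one filled Tamoxifen point, and B2M lies at -0.33 with Tamoxifen.

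The genetic experiment gave fewer calls and a less uniform picture. Of the 8 tested genes, 1 was higher with Tamoxifen and 0 were lower (limma), and 5 were higher at an unadjusted p under 0.05, as were 14.4% of all genes. Over all 11123 genes tested, 0.692% were called higher and 1.38% lower. The median log2 difference of the 8 genes was 0.20, beside 0.038 over all genes tested. At an unadjusted p under 0.05, 2831 of all genes passed, against 230 after adjustment, and with 2 libraries a group the intervals were wide. The Tamoxifen libraries lay wholly above the EtOH libraries for 6 of the 10 genes, 5 of them heavy chains, as did those of 30.4% of genes above 0. B2M lay wholly below, as did 20.3% of genes.

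H2-Q4 was the gene called. It had 18.2 and 17.0 RPKM in the Tamoxifen libraries, against 11.4 and 11.9 RPKM in the EtOH libraries. The groups were clearly apart, and the difference of 0.56 (SE 0.0605; limma adjusted p = 0.0305) was about the size of that with DZNep. The call was lost without Tamoxifen 1, Tamoxifen 2 or EtOH 1, with limma adjusted p-values up to 0.236, and in the fit without a filter (limma adjusted p = 0.117).

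H2-T23 came next, with 80.3 and 72.5 RPKM in the Tamoxifen libraries, against 58.7 and 60.5 RPKM in the EtOH libraries. Both Tamoxifen libraries were above both EtOH libraries, and the difference of 0.35 (SE 0.0693) missed the threshold in limma (adjusted p = 0.0711). The classical chains also stood apart without passing. H2-K1 had 204 and 203 RPKM in the Tamoxifen libraries, against 172 and 181 RPKM in the EtOH libraries. H2-D1 had 208 and 216 RPKM in the Tamoxifen libraries, against 179 and 188 RPKM in the EtOH libraries. Neither overlapped between groups, and the limma differences were 0.20 for H2-K1 (95% interval 0.054 to 0.36; adjusted p = 0.127) and 0.20 for H2-D1 (95% interval 0.05 to 0.36; adjusted p = 0.132).

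The scarcer heavy chains were less clear. H2-Q6 had 2.98 and 3.17 RPKM in the Tamoxifen libraries, against 2.24 and 2.66 RPKM in the EtOH libraries. Its groups did not overlap (limma adjusted p = 0.172). H2-Q7 had 2.81 and 3.16 RPKM in the Tamoxifen libraries, against 2.51 and 2.96 RPKM in the EtOH libraries, with overlapping groups (limma adjusted p = 0.538). H2-T22 had 2.88 and 4.99 RPKM in the Tamoxifen libraries, against 1.90 and 6.77 RPKM in the EtOH libraries. The 2 EtOH libraries enclosed both Tamoxifen libraries, so its difference of 0.022 (95% interval -1.19 to 1.24) carries no direction, and it took the other sign under quantile normalization and under trimmed mean scaling. Summed with H2-T9, the levels were 21.2 and 21.3 RPKM with Tamoxifen, against 18.4 and 16.9 RPKM with EtOH. H2-M3 had 1.18 and 0.884 RPKM in the Tamoxifen libraries, against 0.652 and 0.981 RPKM in the EtOH libraries, with overlapping groups.

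B2M departed from its heavy chains. B2M had 505 and 451 RPKM in the Tamoxifen libraries, against 693 and 517 RPKM in the EtOH libraries. The Tamoxifen libraries were the 2 lowest, but the EtOH libraries lay far apart, and the difference of -0.33 (95% interval -0.71 to 0.054; limma adjusted p = 0.244) did not pass. Without the second EtOH library it was -0.54 and passed (limma adjusted p = 0.0476), with the remaining EtOH library assumed to vary like the other groups. Without the first EtOH library it was -0.12.

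NLRC5 had 0.135 and 0.149 RPKM in the Tamoxifen libraries, against 0.0608 and 0.0390 RPKM in the EtOH libraries. Both Tamoxifen libraries were above both EtOH libraries, with a ratio of mean RPKM of 2.85, and the limma fit without a filter gave a difference of 0.12 (SE 0.0183; adjusted p = 0.129). That fit called 0.0061% of its 16382 genes higher.

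Whether the effects of DZNep and of Tamoxifen differ was tested directly in a fit of all 10 libraries. Deletion of Ezh2 was not verified in the Tamoxifen libraries, so this compares the 2 treatments as labelled. The DZNep effect exceeded the Tamoxifen effect in 4 of the 8 genes tested and fell short of it in 0, while at an unadjusted p under 0.05 it exceeded it in 6, as in 17.8% of all genes. Over all 10994 genes in that fit, 10.7% were called higher and 9.2% lower, and the median difference was 0.33 over the 8 genes and -0.010 over all genes. B2M had the largest difference of effects, 1.09 on the log2 scale (SE 0.150; limma adjusted p = 0.00132). H2-K1 followed with 0.42 (SE 0.0723; limma adjusted p = 0.00421). These calls held without each of the 10 libraries in turn.

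H2-T23 differed by 0.35 (limma adjusted p = 0.0143), a call lost without the second Tamoxifen library (limma adjusted p = 0.0793). H2-D1 differed by 0.29 (limma adjusted p = 0.0285). That call was lost without each of DZNep 1, DZNep 2, DMSO 2, DMSO 3, Tamoxifen 1, Tamoxifen 2 and EtOH 2, with limma adjusted p-values up to 0.109. NLRC5, in the fit without a filter, differed by 0.23 (SE 0.0249; limma adjusted p = 0.00171), and 7.47% of the 15965 genes of that fit were called higher.

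H2-Q4 was at the other end. Its effects were 0.55 with DZNep and 0.56 with Tamoxifen, and their difference of -0.011 had a 95% interval of -0.18 to 0.16 (limma adjusted p = 0.934). H2-Q6 (0.27; adjusted p = 0.138), H2-Q7 (0.31; adjusted p = 0.133) and H2-T22 (0.64; adjusted p = 0.372) did not pass in limma, and H2-M3 was not tested there. H2-Q6 passed without the third DZNep library (limma adjusted p = 0.0476) and H2-T22 without the first EtOH library (limma adjusted p = 0.0300).

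The balance of heavy and light chain transcripts was then read in each library, as a description with no test. The 8 heavy chains summed to 675, 678 and 648 RPKM with DZNep, against 453, 445 and 437 RPKM with DMSO. The ratio of that sum to B2M was 0.633, 0.668 and 0.613 with DZNep, against 0.712, 0.741 and 0.717 with DMSO. Every DZNep library had a lower ratio than every DMSO library. B2M was 1.70 times its DMSO level by group mean while H2-K1 and H2-D1 were 1.54 and 1.41 times theirs.

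With Tamoxifen the ratio stood on the other side of its control. The heavy chains summed to 521 and 521 RPKM with Tamoxifen, against 429 and 456 RPKM with EtOH, and the ratio to B2M was 1.03 and 1.15 with Tamoxifen, against 0.618 and 0.881 with EtOH. The Tamoxifen libraries were the sole ones in which the summed heavy chains exceeded B2M. The EtOH libraries differed from each other by more than the DMSO libraries did, and their B2M levels were 693 and 517 RPKM.

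**Figure D4:**
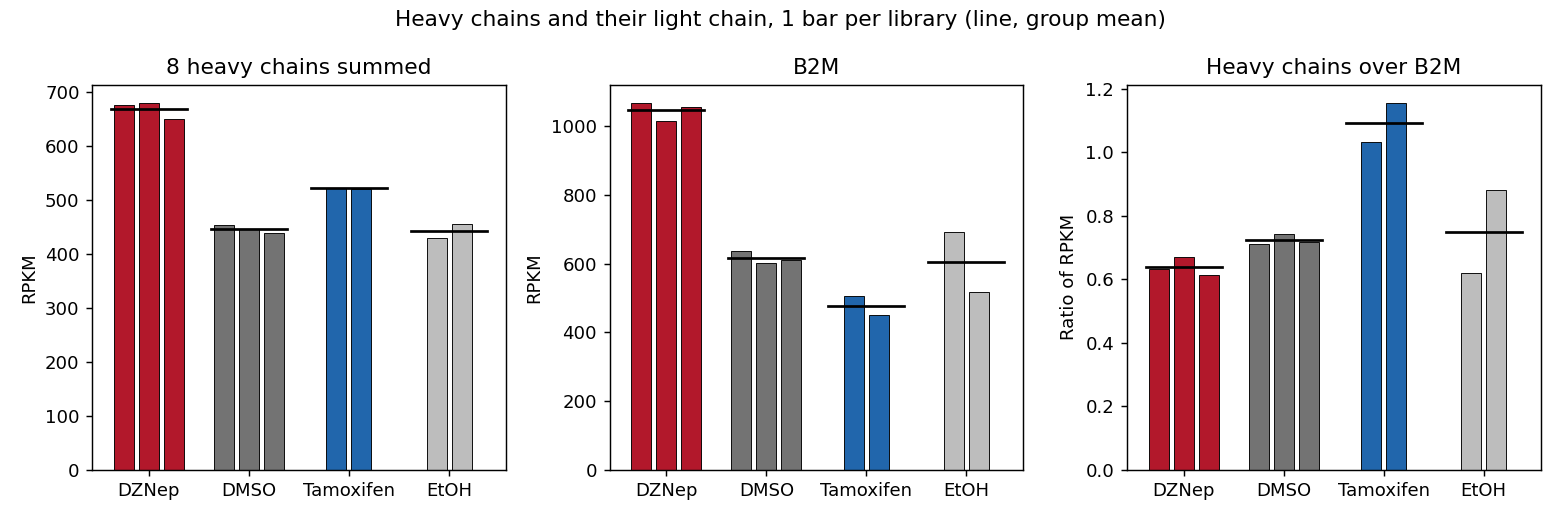
Summed RPKM of the 8 heavy chains, RPKM of B2M and their ratio, 1 bar per library, with a line at the group mean. The ratio is 0.613 to 0.668 in DZNep libraries and 0.712 to 0.741 in DMSO libraries, and 1.03 to 1.15 in Tamoxifen libraries and 0.618 to 0.881 in EtOH libraries.

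Within the heavy chain sum, H2-K1 and H2-D1 held most in every group. H2-D1 held 38.3 to 39.6% of the sum in the DZNep libraries, against 41.3 to 41.8% in the DMSO libraries, with no overlap. H2-T23 held 14.5 to 14.9% with DZNep, against 12.7 to 14.0% with DMSO. H2-K1 overlapped between these groups, at 39.7 to 41.7% with DZNep and 39.3 to 40.2% with DMSO. In the genetic experiment H2-Q4 held 3.27 to 3.50% with Tamoxifen, against 2.62 to 2.66% with EtOH. H2-T23 held 13.9 to 15.4% with Tamoxifen, against 13.3 to 13.7% with EtOH. H2-K1 held 38.99 to 39.2% with Tamoxifen, against 39.8 to 40.1% with EtOH. None of these 3 shares overlapped between the groups, while that of H2-D1 did. With 2 libraries a group this is common, as the levels of 30.4% of genes above 0 lay wholly above and 20.3% wholly below. The shares are also parts of 1 sum, so they do not move independently, and their shifts were not tested.

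Genes outside the 10 that encode other class I chains or serve the same pathway were counted from lists chosen with earlier results of these data known. With DZNep, 11 of 16 tested other class I and class I-like chains were higher and 1 was lower, with a median of 0.36, beside 16.6% higher and 11.1% lower over all genes. H2-Q10 and GM8909 reached the filter through their DZNep libraries alone. Without them 9 of 14 were higher and 1 was lower, with a median of 0.32. The smallest p-values were those of H2-K2 (0.63; limma adjusted p = 0.000441), GM7030 (0.50; adjusted p = 0.00108) and H2-T9 (0.62; adjusted p = 0.00170). The 1 lower chain was RAET1E, a RAET1 family gene, whose products are ligands of the NK cell receptor NKG2D, and it is named after its values were seen. RAET1E had 0.957, 1.59 and 1.36 RPKM in the DZNep libraries, against 2.29, 2.71 and 2.50 RPKM in the DMSO libraries. With Tamoxifen 0 of the 16 passed in limma. At an unadjusted p under 0.05, 0 were higher and 2 lower, beside 14.4% and 11% of all genes. The DZNep effect was above the Tamoxifen effect in 4 and below it in 1, beside 10.7% and 9.2% of all genes.

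Those 5 were H2-K2 (0.52), H60C (0.49), H2-T10 (0.44) and PROCR (0.46) above, and RAET1E (-0.52) below. H60C, like RAET1E, encodes an NKG2D ligand. PROCR encodes the endothelial protein C receptor, which has a class I-like fold but presents no peptide. The call of H2-K2 held without each library in turn. H60C lost its call without the second Tamoxifen library (limma adjusted p = 0.0739). H2-T10 lost its call without any of 7 of the 10 libraries, PROCR without any of 8 and RAET1E without any of 7.

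Of 12 tested genes of peptide supply and loading, 8 were higher with DZNep and 0 lower, with a median of 0.48, beside 16.6% and 11.1% of all genes. At an unadjusted p under 0.05, 9 were higher and 0 lower, beside 24% and 17.8% of all genes. TAPBPL (-0.0075), CANX (0.076), PDIA3 (0.069) and CALR (0.15), which serve in peptide loading or the folding of heavy chains, did not pass. TAP1 and TAP2, the subunits of the peptide transporter, changed by 1.05 (limma adjusted p = 1.07e-05) and 0.77 (adjusted p = 0.000193), and PSMB9, an immunoproteasome subunit, by 1.14 (adjusted p = 0.000140). With Tamoxifen 1 of 12 was higher, the immunoproteasome subunit PSMB10, by 0.41 (limma adjusted p = 0.0395), which was lost without Tamoxifen 1, Tamoxifen 2 or EtOH 1, with adjusted p-values up to 0.382. Over all genes 0.692% were called higher with Tamoxifen. At an unadjusted p under 0.05, 7 of the 12 were higher with Tamoxifen and 0 lower, beside 14.4% and 11% of all genes. Their median with Tamoxifen was 0.22, beside 0.038 over all genes tested. The DZNep effect was larger than the Tamoxifen effect for 5 of the 12, beside 10.7% of all genes. These were PSMB9 (0.74), TAP1 (0.64), TAP2 (0.61), ERAP1 (0.31) and TAPBP (0.28). For the first 3 this held without each library, while ERAP1 lost its call without any of 8 of the 10 libraries and TAPBP without any of 7.

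Of 12 tested factors that act on class I promoters, 1 was higher with DZNep and 2 were lower, with a median of -0.025. Over all genes 16.6% were called higher and 11.1% lower, so these counts are near the background. RFX5, the DNA-binding subunit of the RFX complex, changed by 0.19 (limma adjusted p = 0.0235), a call lost without DZNep 1, DZNep 3, DMSO 2 or DMSO 3 (adjusted p-values up to 0.0905).

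The factors that fell were NFYA, a subunit of NF-Y, by -0.26 (limma adjusted p = 0.0105) and NFKB1 by -0.16 (limma adjusted p = 0.0445). NFYA missed the threshold without the second DMSO library (limma adjusted p = 0.0516). NFKB1 did so without any of the 6 libraries but DMSO 1, with adjusted p-values up to 0.129. With Tamoxifen 0 of the 12 passed in limma. At an unadjusted p under 0.05, 2 were higher and 3 lower, beside 14.4% and 11% of all genes. The DZNep effect was above the Tamoxifen effect in 0 of them, with 2 above at an unadjusted p under 0.05, and below it for NFYA (-0.48; limma adjusted p = 0.00345) and NFKB1 (-0.28; adjusted p = 0.0246). Over all genes 10.7% were called above and 9.2% below, and 17.8% were above at an unadjusted p under 0.05. The call of NFKB1 was lost without DMSO 2, Tamoxifen 1, Tamoxifen 2 or EtOH 1 (adjusted p-values up to 0.109). CIITA, the class II counterpart of NLRC5, was at 0 RPKM in both vehicles and in DZNep and did not exceed 0.00491 RPKM with Tamoxifen.

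**Figure D5:**
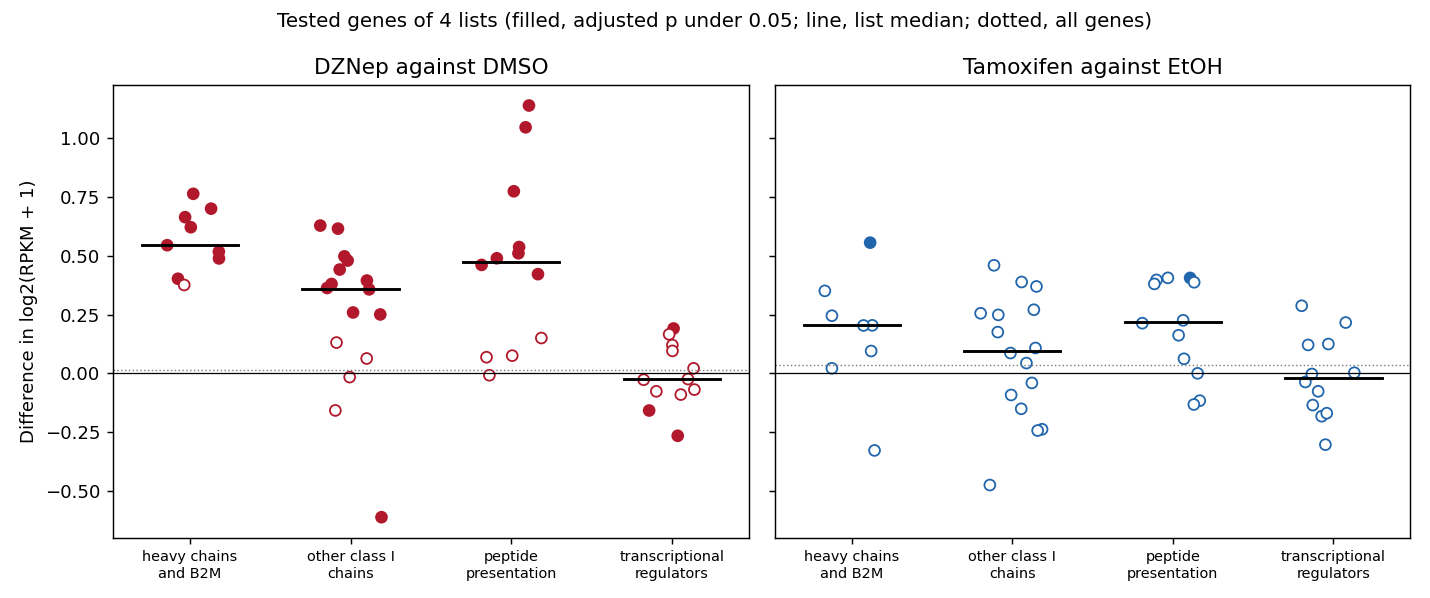
Difference in log2(RPKM + 1) of the tested genes of 4 lists in both comparisons, with each list's median (line), the median of all genes (dotted) and filled points where the limma adjusted p was under 0.05. With DZNep the medians are 0.55, 0.36 and 0.48 for heavy chains with B2M, other class I chains and peptide presentation, and -0.025 for the regulators. H2-M3, H2-Q10 and GM8909 are drawn there but reached the filter through their DZNep libraries alone. Without them the medians of the heavy chains with B2M and of the other class I chains are 0.58 and 0.32.

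Some genes resembled these in pattern over the 10 libraries, by the root mean square difference of log2(RPKM + 1) less the mean of the vehicle of their own table, among 10986 genes. Nearest to NLRC5 were SMARCA2 (0.0296), CTSD (0.0337) and LIG3 (0.0356), beside a median of 0.220 over all genes. This scale compresses NLRC5, whose ratio of mean RPKM of 9.16 with DZNep shows as 0.35. The genes compared with it had passed the filter of 1 RPKM. SMARCA2 differed from its vehicle by 0.35 with DZNep, so its likeness to NLRC5 is one on this scale and not in relative change. Nearest to B2M were SULT1C2 (0.0885), SPRR2A2 (0.0890) and TNC (0.107), beside a median of 0.465. TNC, which encodes the matrix protein tenascin-C, differed from its vehicle by 0.74 with DZNep and by -0.305 with Tamoxifen, by group means. Nearest to H2-K1 were FRMD4A (0.0623), UROS (0.0624) and SLC52A2 (0.0625), beside a median of 0.360.

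The libraries and the labels were checked. Each library listed 15021 to 15404 genes above 0. EZH2 had 22.5, 24.2 and 24.7 RPKM in the DZNep libraries, against 30.4, 29.8 and 27.1 RPKM in the DMSO libraries, a difference of -0.28 (limma adjusted p = 0.0142) that missed the threshold without the second DMSO library (adjusted p = 0.0652). EZH2 had 32.0 and 33.2 RPKM in the Tamoxifen libraries, against 27.9 and 34.0 RPKM in the EtOH libraries. These groups overlapped (limma adjusted p = 0.635). A value for the whole gene also holds exons that a deletion leaves. The floxed exons being not given in the sources used here, it does not check the deletion in the libraries labelled Tamoxifen.

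Markers of other cells were read because leukocytes express class I genes strongly. Of the 9 leukocyte genes in the tables, 7, PTPRC, CSF1R, CD3E, LYZ2, ITGAM, CD79A and EMR1, stayed at or under 0.0672 RPKM in every library. CD68 made up most of that list's sum of 17.1 to 19.1 RPKM in DZNep libraries and 14.5 to 17.4 RPKM in DMSO libraries, and 13.1 to 14.9 RPKM in Tamoxifen libraries and 12.9 to 15.1 RPKM in EtOH libraries. AIF1 had 0.957, 1.18 and 0.855 RPKM in the DZNep libraries, against 0.928, 0.509 and 0.524 RPKM in the DMSO libraries, and 0.683 and 0.526 RPKM in the Tamoxifen libraries, against 0.805 and 1.25 RPKM in the EtOH libraries. It overlapped between the chemical groups and was lower in both Tamoxifen libraries, and passed in neither limma fit without a filter (adjusted p = 0.152 for DZNep and 0.289 for Tamoxifen).

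No class II gene of the 5 listed reached 1 RPKM, and H2-AA was at 0 throughout. H2-EB1 had 0.370, 0.391 and 0.469 RPKM in the DZNep libraries, against 0.0922, 0.0716 and 0.112 RPKM in the DMSO libraries, and was called higher in the fit without a filter (limma adjusted p = 0.00205). H2-AB1 was lower in every DZNep library than in any DMSO library, with a difference of -0.18 that did not pass (limma adjusted p = 0.107). CD74 and H2-DMA overlapped between groups. Of the 4 endothelial markers, CDH5 was at 0 in every library and KDR did not exceed 0.00469 RPKM. PECAM1 had 0.445, 0.288 and 0.230 RPKM in the DZNep libraries, against 0.133, 0.129 and 0.128 RPKM in the DMSO libraries (limma adjusted p = 0.0508 without a filter), while EGFL7, at 1.92 to 2.93 RPKM, overlapped between them.

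Some epithelial and mesenchymal markers moved with DZNep. EPCAM and KRT5 were high in every library, from 196 and 1689 RPKM up, which fits the epithelial label. The 6 epithelial markers summed to 4977 to 5106 RPKM in DZNep libraries, against 3598 to 3749 RPKM in DMSO libraries, a sum made up mostly of KRT5 and KRT14. The basal keratins KRT14 (0.85) and KRT5 (0.42) and the luminal keratin KRT8 (0.44) were called higher, 3 of 6 beside 16.6% of all genes. EPCAM (-0.014), CDH1 (-0.07) and KRT18, at 257 RPKM by group mean both with DZNep and with DMSO, were not. With Tamoxifen KRT14 was called lower (-0.49; limma adjusted p = 0.0424).

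The 6 fibroblast and smooth muscle markers summed to 8.26 to 9.44 RPKM in DZNep libraries, against 3.00 to 4.28 RPKM in DMSO libraries. DCN, with 6.11 ± 0.699 RPKM with DZNep and 2.77 ± 0.477 RPKM with DMSO (SD, n = 3 each), was called higher (limma adjusted p = 0.000899). ACTA2, with 2.62 ± 0.187 RPKM with DZNep and 0.692 ± 0.253 RPKM with DMSO (SD, n = 3 each), reached the filter through its DZNep libraries alone, and was called higher in the fit without a filter (limma adjusted p = 0.00419). COL1A1 averaged 0.0363 RPKM with DZNep and 0.0904 RPKM with DMSO, and PDGFRA 0.0137 RPKM with DZNep and 0.0283 RPKM with DMSO, with overlapping groups. COL1A2 and COL3A1 were at 0 in both. The part of all these markers in the class I values was not tested.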

How the data were processed

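Stranded mRNA libraries were made from 500 ng of RNA with a TruSeq kit, per the labels' protocols. The submitters' processing notes name bcl2fastq 2.18, STAR, Cufflinks and build mm9, with no version for STAR or Cufflinks. Log2 RPKM values were deposited by the authors in 2 tables, 1 per experiment. Their floor of 0 was read as log2(RPKM + 1), and RPKM was recovered by undoing that. In the genetic table, 2 rows without values and 27 symbols turned into dates were left out. Neither counts nor depth can be had from these values.

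Every gene whose mean reached 1 RPKM was tested with limma 3.58.1 in R 4.3.3 (mean trend, two-sided), each experiment alone, and effects were compared in 1 fit of all 10 libraries, with Benjamini-Hochberg adjustment over all genes and a threshold of 0.05. The procedure was tested on simulated data. Genes and lists were chosen with earlier results of these data known. From the list of regulators 1 gene is not reported here and is left out of its counts and median. All 10 genes are named. From each other list all calls are named where there were up to 6, otherwise the 3 of smallest p. For the likeness of patterns the 3 nearest genes are named. Alternatives were a pseudocount of 0.1, quantile normalization, trimmed mean scaling, no filter, a filter of 5 RPKM, a robust prior, no trend, a joint fit, a replicate block and leaving out each library. Those for NLRC5 and the sum of H2-T22 and H2-T9 were added after the data were seen. Shared stretches came from GENCODE M21 transcripts. Python 3.11.15 with matplotlib 3.10.9 drew the figures.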

Additional observations from a re-analysis of the deposited data

Results flagged for a closer look

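The difference between the DZNep effect and the Tamoxifen effect passed the limma test in these genes, and it is what marks them for a second look. Among the genes described, the DZNep effect exceeded the Tamoxifen effect by 1.09 on the log2(RPKM + 1) scale for B2M, 0.42 for H2-K1, 0.35 for H2-T23 and 0.29 for H2-D1, and by 0.23 for NLRC5 without a filter. B2M was the sole one of them with opposite directions, higher in 3 of 3 DZNep libraries than in any DMSO library and lower in 2 of 2 Tamoxifen libraries than in either EtOH library. Its decrease with Tamoxifen was not called (-0.33; limma adjusted p = 0.244) and ran from -0.54 to -0.12 when libraries were left out. In that experiment 20.3% of genes above 0 also lay wholly below.

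Among the other chains the difference was 0.52 for H2-K2, 0.49 for H60C, 0.46 for PROCR, 0.44 for H2-T10 and -0.52 for RAET1E. PROCR had 2.96 and 2.92 RPKM in the Tamoxifen libraries, against 4.94 and 4.05 RPKM in the EtOH libraries, while its DZNep and DMSO libraries overlapped. Among genes of peptide supply it was 0.74 for PSMB9, 0.64 for TAP1, 0.61 for TAP2, 0.31 for ERAP1 and 0.28 for TAPBP. Among the regulators it was -0.48 for NFYA and -0.28 for NFKB1. NFYA had 16.7, 15.3 and 14.9 RPKM in the DZNep libraries, against 18.5, 19.2 and 19.2 RPKM in the DMSO libraries, and 23.2 and 23.6 RPKM in the Tamoxifen libraries, against 19.5 and 20.6 RPKM in the EtOH libraries.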

How the results depend on the processing

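The count of genes higher with DZNep stayed between 6 and 9 under every alternative run, 6 being with a filter of 5 RPKM, which tests fewer genes. H2-K1, H2-D1, H2-Q4, H2-T23 and B2M kept their calls in each. The Tamoxifen count of 1 became 0 without a filter, 2 with a robust prior and 3 in the joint fit of 10 libraries. When libraries were left out, the H2-Q4 change with Tamoxifen ran from 0.51 to 0.60, and its call did not hold in each fit. That of B2M stayed a decrease, from -0.54 to -0.12. The difference count of 4 ran from 2 to 5 when libraries were left out. The cause of these changes was not tested.

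The labels do not say whether same-numbered libraries were paired. Their deviations from the group mean correlated at 0.059, 0.059 and -0.068 in the chemical experiment and 0.040 in the genetic one. With 2 libraries a group, the deviations of a group mirror each other, so the genetic value is a single number. With so few libraries these values cannot decide whether there was a pairing. With a replicate block the counts were 9 for DZNep, 2 for Tamoxifen and 2 for the difference, where H2-D1 (limma adjusted p = 0.0784) and H2-T23 (limma adjusted p = 0.0606) no longer passed.

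Directions turned in a few uncalled results. For H2-T22 with Tamoxifen the value was -0.030 with quantile normalization and -0.010 with trimmed mean scaling, and from -0.69 to 0.73 when libraries were left out. EZH2 with Tamoxifen ran from -0.058 to 0.21, the H2-Q4 difference from -0.057 to 0.035 and the H2-T22 difference from -0.067 to 1.35 when libraries were left out. Summing H2-T22 with H2-T9, a gene picked for its values here, gave 0.65 with DZNep and 0.26 with Tamoxifen, which support nothing. NLRC5 kept its calls for DZNep and for the difference in all alternatives run, and with a pseudocount of 0.1 its DZNep change was 1.64. Over single genes, 695 of 802 values under alternatives kept direction and call, 87 lost the call, 11 gained it and 9 turned. The heavy chain to B2M ratio without H2-Q6 and H2-Q7 was 0.632 with DZNep, 0.716 with DMSO, 1.08 with Tamoxifen and 0.741 with EtOH. Depth is unknown, so counting error could not be set, and with 2 libraries a group the genetic experiment bounds little.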
